A study of Mus musculus and synthetic construct with 3 samples.

Results

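Gpnmb encodes a transmembrane glycoprotein (GPNMB, osteoactivin) that was measured here together with the genes of 5 of its receptors and of the protease that releases its soluble form. The 7 genes were taken by symbol, with no threshold on their values, from the 32285 genes counted: the ligand Gpnmb, the receptors Cd44, Sdc4, Egfr, Kdr and Fgfr1, and the sheddase Adam10. All were read in a Seq-Scope experiment, in which a tissue section is laid on an array of barcoded DNA clusters so that each captured RNA molecule, counted by its unique molecular identifier (UMI), keeps its position. The 3 abdominal aortic aneurysm (AAA) mice, A1, A2 and A3, were Apoe-/- males that had received angiotensin II from a subcutaneous minipump for 4 weeks. The 3 control mice, C1, C2 and C3, were Apoe-/- males that had received saline from the same kind of pump for 4 weeks. All mice therefore lacked Apoe, ate a normal diet and received the pump at 16 weeks of age by the labels, or at 12 weeks by the study's methods. The labels give the angiotensin II dose as 1000 ng per ml, and the study's methods give it as 1000 ng per kg per min. The sections came from 3 of 5 mice per group, and the 3 angiotensin II mice were those with an aneurysm, so the comparison is of aneurysm with control aorta and not of angiotensin II with saline.

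GPNMB sits in the membranes of lysosomes, melanosomes and the cell surface, and it is made in quantity by macrophages that have taken up lipid or cell debris. ADAM10, a membrane metalloprotease, cuts it close to the membrane and frees an extracellular fragment. The fragment or the intact protein has been reported to bind CD44, the receptor for hyaluronan, and syndecan-4, a heparan sulfate proteoglycan, and to engage receptor tyrosine kinases. In a diseased artery these partners can lie on different cells, with GPNMB on macrophages and the receptors on smooth muscle cells (SMCs), fibroblasts, endothelium or leukocytes.

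Each condition had 10 transverse sections of the suprarenal abdominal aorta, 3 or 4 per mouse. The GEO labels name normal and AAA tissue but do not say which barcode belongs to which, so each section was assigned to its mouse and condition from the order of sections along the lane drawn in the study. That drawn layout correlated with the UMI density along the lane at 0.82, against 0.34 for the reversed order. Sections of A1, A2 and A3 held 969486, 453028 and 672182 exonic UMIs, against 166276, 139518 and 191284 in C1, C2 and C3. SMC and macrophage transcripts were found in every mouse. The 8 SMC marker genes (Acta2, Tagln and others) together held 9558 to 11540 CPM (UMIs per 1000000 UMIs of the sample) in AAA mice and 13912 to 18784 in control mice. The 11 macrophage markers, all detected in every mouse, held 3026 to 3616 CPM in AAA mice and 1588 to 1993 in control mice. Barcodes between the sections carried 327345 UMIs as well, at 5.03 UMIs per hexagon of 12 µm sides, against 19.3 to 27.2 in AAA mice and 12.4 to 14.3 in control mice. RNA found off the tissue is given below beside the results for Gpnmb and Cd44. For the others its level was 241 CPM for Sdc4, 45.8 for Egfr, 45.8 for Kdr, 101 for Fgfr1 and 21.4 for Adam10.

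Gpnmb rose in the aneurysms. It had 559, 515 and 642 exonic UMIs in A1, A2 and A3, which are 577, 1137 and 955 CPM, against 68, 67 and 69 UMIs in C1, C2 and C3, or 409, 480 and 361 CPM. All 3 AAA mice lay above all 3 control mice, and A1 was the lowest of the AAA mice and the nearest to the controls. The means were 889 ± 286 CPM in AAA and 417 ± 60.1 in control mice (SD, n = 3 mice each), a ratio of 2.13. In the fit across 6377 genes by edgeR's quasi-likelihood test, with Benjamini-Hochberg adjustment over all of them, the log2 fold change of Gpnmb was 1.08 (SE 0.17, adjusted p = 7.73e-05). Of the 7 genes, 1 passed an adjusted p of 0.05, and in that fit 2.32% of all genes passed in either direction, 1.08% as higher in AAA and 1.24% as lower. An exact two-sided permutation test over mice gave p = 0.1 for Gpnmb, the smallest that 3 against 3 mice allow. In the pairs of aortas embedded side by side, the ratio of AAA to control was 1.41 for A1 over C1, 2.37 for A2 over C2 and 2.65 for A3 over C3. The call was lost when hexagons with fewer than 75 genes were left out, which kept only 9, 7 and 6 Gpnmb UMIs in C1, C2 and C3. The log2 fold change was then 1.06 with an adjusted p of 0.118 by edgeR, and the groups overlapped, at 575, 988 and 1090 CPM in A1, A2 and A3 against 264, 537 and 668 in C1, C2 and C3.

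**Figure D1:**
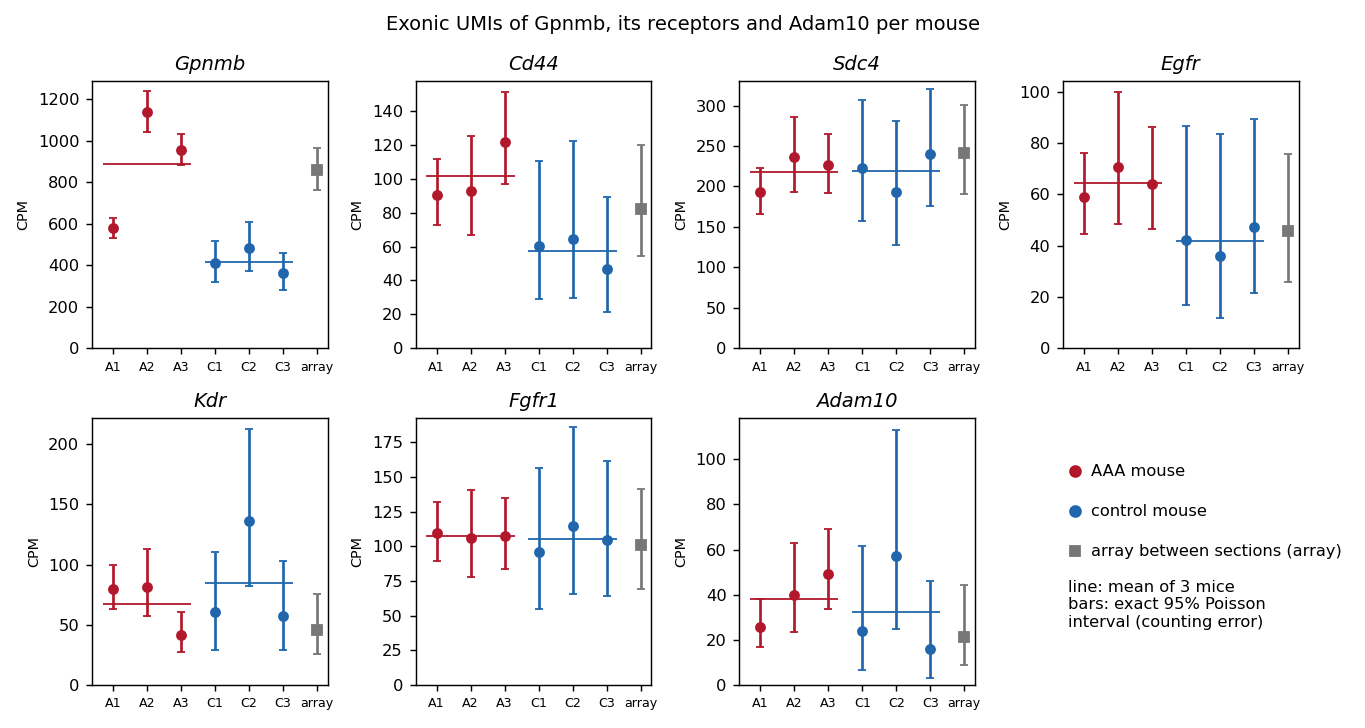
Exonic CPM of each gene in each mouse, with AAA mice A1 to A3 at the left, control mice C1 to C3 beside them and the array between the sections at the far right. Points are single mice, bars are exact 95% Poisson intervals for counting error, and horizontal lines are means of 3 mice; Gpnmb, Cd44 and Egfr are the panels in which the AAA mice all lie above the control mice.

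Per area of array inside the section borders, Gpnmb was higher in AAA mice as well. There were 15.7, 25.9 and 18.4 Gpnmb UMIs per 1000 hexagons in A1, A2 and A3, against 5.85, 5.97 and 4.76 in C1, C2 and C3. This area spans the width of the lane and can include array without tissue. Counts per area also follow depth, and AAA hexagons held more UMIs of all genes. Sdc4, whose groups overlapped in CPM, did not overlap per area. It had 5.26, 5.38 and 4.36 UMIs per 1000 hexagons in the AAA mice and 3.19, 2.41 and 3.18 in the control mice. On the array between the sections, Gpnmb had 281 UMIs, or 4.32 per 1000 hexagons (exact 95% Poisson interval 3.83 to 4.85). The control mice were thus close to the level off the tissue, with intervals of 4.55 to 7.42, 4.63 to 7.59 and 3.71 to 6.03, and the AAA mice were well above it. As a share of UMIs, however, the array between sections resembled AAA tissue, at 858 CPM of Gpnmb. Intervals here and below cover counting error only. Whether RNA carried over from AAA sections contributes to the Gpnmb UMIs counted over control sections was not tested.

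By section, Gpnmb ran over 494 to 1489 CPM with a median of 863 in the 10 AAA sections, and over 331 to 559 with a median of 408 in the 10 control sections. The section ranges overlapped, because the 3 sections of A1 had 655, 541 and 494 CPM while 1 control section, the first of C2, had 559. Per area, a measure that also follows depth, there was no overlap. AAA sections had 10.2 to 30.5 UMIs per 1000 hexagons and control sections 3.64 to 7.30. Sections of 1 mouse are not independent, so no test was made over sections.

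**Figure D2:**
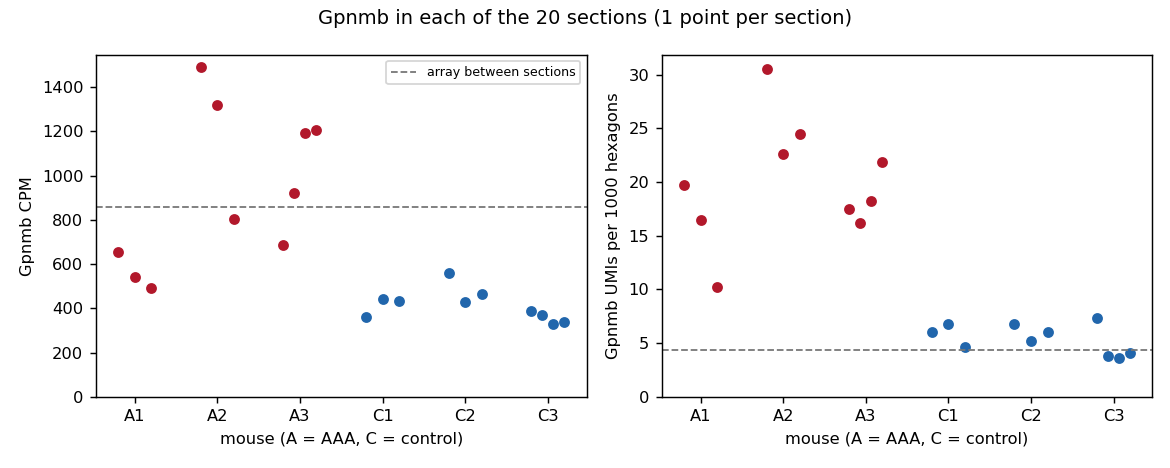
Gpnmb in each of the 10 AAA and 10 control sections, as CPM and as UMIs per 1000 hexagons. Points are sections grouped by mouse; per area every AAA section lies above every control section, while in CPM the sections of A1 reach down to the highest control sections.

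Gpnmb UMIs were more clumped in the aneurysms. In A1, A2 and A3, 44, 68 and 57 hexagons held 2 or more Gpnmb UMIs, with up to 5, 4 and 4 in one hexagon, against 1 such hexagon each in C1, C2 and C3 and none there with more than 2. These hexagons carried 18.4%, 30.1% and 20.2% of all Gpnmb UMIs in the AAA mice, against 2.94%, 2.99% and 2.90% in the control mice. The groups did not overlap (exact two-sided permutation p = 0.1, the smallest possible). Off the tissue the share was 5.69%, from 8 hexagons. A higher number of UMIs per area raises this share by itself, and that part was not separated.

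Markers of macrophages moved with Gpnmb. Of 10 tested macrophage markers, all 10 had a positive log2 fold change and 6 passed as higher in AAA (Cd68, Lyz2, C1qa, C1qb, C1qc and Ctss). The median over the 10 was 0.84, against −0.01 over all genes tested. Of all genes tested, 1.08% passed as higher and 1.24% as lower. Of 8 SMC markers, 7 passed as lower, with a median of −0.76. Fibroblast and red blood cell markers moved too. Of 8 fibroblast markers, all 8 had a positive log2 fold change and 4 passed as higher (Lum, Col1a1, Col1a2 and Col3a1). The median over the 8 was 0.45, and their summed level was 11264 to 15020 CPM in AAA mice and 9165 to 9928 in control mice. Of 4 tested red blood cell markers, 3 passed as lower, with a median of −1.17. The summed level of the red blood cell list was 1232 to 2101 CPM in AAA mice and 1704 to 5304 in control mice. In sums over whole sections, more macrophages and more RNA per macrophage cannot be told apart, and the part of either in the Gpnmb difference was not tested. Levels in CPM also depend on what else a sample holds.

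Among the receptors, Cd44, which binds hyaluronan and osteopontin, had 88, 42 and 82 UMIs in A1, A2 and A3, or 90.8, 92.7 and 122 CPM, against 10, 9 and 9 UMIs in C1, C2 and C3, or 60.1, 64.5 and 47.1 CPM. The 3 AAA mice were all above the 3 control mice, as was so for 8.97% of all genes tested. The means were 102 ± 17.5 in AAA and 57.2 ± 9.08 CPM in control mice (SD, n = 3 each). The difference did not pass the test across genes, with a log2 fold change of 0.84 (SE 0.28, adjusted p = 0.125 by edgeR), and its exact permutation p was 0.1. Counting introns as well as exons brought the groups together, at 80.3, 76.9 and 92.9 CPM in the AAA mice and 93.1, 68.6 and 69.3 in the control mice, with a log2 fold change of 0.14. Off the tissue, Cd44 had 82.5 CPM of exonic UMIs.

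Egfr, the receptor tyrosine kinase for EGF-like ligands, showed the same arrangement at lower counts. It had 57, 32 and 43 UMIs in A1, A2 and A3, or 58.8, 70.6 and 64.0 CPM, against 7, 5 and 9 UMIs in C1, C2 and C3, or 42.1, 35.8 and 47.1 CPM. The groups did not overlap in exonic UMIs, but each control value rested on fewer than 10 molecules. In all, 3 of the 7 genes (Gpnmb, Cd44 and Egfr) had every AAA mouse above every control mouse, against 8.97% of all genes tested. The log2 fold change of 0.58 (SE 0.33, adjusted p = 0.519 by edgeR) did not pass, and with introns counted it was −0.03. The whole-gene levels of Egfr were 92.7, 114 and 113 CPM in the AAA mice and 95.7, 108 and 120 in the control mice, and these overlapped.

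Sdc4, the syndecan-4 proteoglycan, did not differ between the groups beyond their spread. It had 193, 236 and 226 CPM in A1, A2 and A3, against 223, 194 and 240 in C1, C2 and C3. The groups overlapped throughout, and the log2 fold change was −0.04 (SE 0.17, adjusted p = 0.973 by edgeR).

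Kdr, the endothelial VEGF receptor 2, had 79.4, 81.7 and 41.7 CPM in A1, A2 and A3, against 60.1, 136 and 57.5 in C1, C2 and C3. The groups overlapped, with the highest value in C2 and the lowest in A3. Its log2 fold change was −0.26 (SE 0.31, adjusted p = 0.843 by edgeR), and it turned to 0.21 without C2. None of 5 tested endothelial markers passed either, and the summed level of that list was 541 to 651 CPM in AAA mice and 545 to 580 in control mice.

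Fgfr1, a receptor for fibroblast growth factors, had 109, 106 and 107 CPM in A1, A2 and A3, against 96.2, 115 and 105 in C1, C2 and C3. The AAA values all fell inside the control range, and the log2 fold change was 0.04 (SE 0.23, adjusted p = 0.978 by edgeR). An antisense gene, Gm16159, overlaps Fgfr1 exons, so these counts are uncertain to the extent that reads of either strand were assigned to Fgfr1.

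Adam10, the sheddase, had the fewest UMIs of the set. It had 25, 18 and 33 UMIs in A1, A2 and A3, or 25.8, 39.7 and 49.1 CPM, against 4, 8 and 3 UMIs in C1, C2 and C3, or 24.1, 57.3 and 15.7 CPM. The groups overlapped, with the highest value in a control mouse. The log2 fold change was 0.27 (SE 0.45, adjusted p = 0.909 by edgeR) and ranged over −0.08 to 0.91 as settings and left-out mice changed. A change of 2-fold in Adam10 could not be distinguished from none at this depth. A p-value above the threshold does not show that Adam10, Sdc4, Kdr or Fgfr1 were the same in AAA and control aortas.

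Around these genes, lists of related genes were read in the same fit, in which 1.08% of all genes passed as higher in AAA and 1.24% as lower. Of the lists on the receptor side, few genes passed. Among 11 relatives of the receptors, 6 were tested and 0 passed, with a median log2 fold change of 0.07. Sdc1, another syndecan, had 0.62 (adjusted p = 0.148 by edgeR), Sdc2 had 0.08 and Flt1, VEGF receptor 1, had 0.06. Of the integrin genes, Itgb1 had −0.32 (adjusted p = 0.275 by edgeR) and Itgav 0.09, and neither passed. Of 10 genes for CD44 ligands, hyaluronan enzymes and the linkers that tie CD44 to actin, 6 were tested and 0 passed, with a median of 0.10. Spp1, which encodes the CD44 ligand osteopontin, had 339, 402 and 434 CPM in A1, A2 and A3, against 331, 373 and 382 in C1, C2 and C3. These Spp1 values overlapped (log2 fold change 0.10), as did those of the linker genes Msn (0.11) and Ezr (−0.10).

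The ligands that share the receptors with GPNMB were sparse. Of 10 growth factor genes only 3 could be tested. Fgf1, an FGF receptor ligand, fell by 1.34 on the log2 scale (SE 0.37, adjusted p = 0.0371 by edgeR), with 26.8, 22.1 and 20.8 CPM in A1, A2 and A3 against 66.2, 71.7 and 47.1 in C1, C2 and C3. Each Fgf1 value rested on 9 to 26 molecules. Fgf2 had −0.19 and Vegfa −0.09, and neither passed.

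On the sheddase side, 6 of 10 genes for the partners, activators and inhibitors of ADAM10 and ADAM17 were tested and 1 passed. Timp1, a metalloprotease inhibitor that blocks ADAM10 in biochemical assays, rose, with 170, 245 and 192 CPM in A1, A2 and A3, against 90.2, 86.0 and 115 in C1, C2 and C3. Fibroblast and macrophage markers rose in the same mice, and their part in this was not tested. All AAA values of Timp1 were above all control values (log2 fold change 1.00, SE 0.22, adjusted p = 0.0053 by edgeR). Timp3, the matrix-bound inhibitor, had a log2 fold change of −0.11 and Furin, which removes the ADAM propeptide, had −0.11, and neither passed.

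Of the MiT/TFE factors, which drive Gpnmb and lysosomal genes in macrophages and melanocytes, only Tfe3 had enough UMIs to be tested. Its level was 49.5, 48.6 and 72.9 CPM in A1, A2 and A3, against 54.1, 86.0 and 62.7 in C1, C2 and C3, and these overlapped. Mitf had 8 to 14 UMIs per AAA mouse and 3 to 10 per control mouse, and Tfeb had 14 to 22 and 2 to 9.

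A list was made of genes that were also examined by the authors in cultured SMCs given soluble GPNMB. It had 10 genes, of which 6 were tested here. Il6, Cxcl3, Cxcl5 and Mmp9, which soluble GPNMB raised in the study's cultured SMCs, had too few UMIs to be tested. In the tissue, 4 contractile genes fell: Acta2 (log2 fold change −0.78), Myh11 (−1.04), Tagln (−0.64) and Cnn1 (−0.54). Mmp2, a gelatinase, rose, with 346, 302 and 354 CPM in A1, A2 and A3 against 247, 172 and 209 in C1, C2 and C3 (log2 fold change 0.67, adjusted p = 0.0144 by edgeR). The fibroblast markers above rose in the same mice as Mmp2, and their part was not tested. The remaining tested gene of the list had a negative log2 fold change and did not pass. The 4 contractile genes are also SMC markers, so this list is no independent evidence of a response, and fewer SMCs and less of these RNAs per SMC cannot be told apart.

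The last list was that of lipid-laden macrophages, the cells best known for making GPNMB. Of its 16 genes, 14 were tested, and 4 passed as higher and 0 as lower. All 14 had a positive log2 fold change, and the median was 0.53, against −0.01 over all genes tested, of which 1.08% passed as higher. Ctsd, a lysosomal protease, had 1482, 1746 and 2116 CPM in A1, A2 and A3, against 986, 939 and 1056 in C1, C2 and C3. Ctsb (log2 fold change 0.65, adjusted p = 0.0014 by edgeR), Lgals3 (0.81, adjusted p = 0.0019) and Cd68 (0.84, adjusted p = 0.0356) rose as well, and for Ctsd, Ctsb, Lgals3 and Cd68 all AAA mice lay above all control mice. Cd68 is also among the macrophage markers above. Grn, a lysosomal glycoprotein, had 0.35 and did not pass (adjusted p = 0.0838).

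The next comparison asked where the ligand and receptor transcripts lay relative to smooth muscle. A hexagon was called Acta2-rich when it held 2 or more exonic UMIs of Acta2, the SMC actin. There were 538, 209 and 454 such hexagons in A1, A2 and A3, against 261, 102 and 248 in C1, C2 and C3. They carried 5.02%, 3.11% and 4.46% of all UMIs in the AAA mice, against 12.6%, 5.05% and 6.57% in the control mice, and the groups did not overlap (exact two-sided permutation p = 0.1).

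In the aneurysms, Gpnmb lay both on and away from Acta2-rich hexagons, at a like share of UMIs. In A1 it had 411 CPM on Acta2-rich hexagons, 576 within 45 µm of one and 590 farther away. In A2 the levels were 1276, 1258 and 1084, and in A3 they were 1400, 1200 and 823. The mice thus differed in direction, with A1 lower on Acta2-rich hexagons and A2 and A3 higher there. Summed over the AAA mice, Gpnmb had 863 CPM on Acta2-rich hexagons (exact 95% Poisson interval 684 to 1074, 80 UMIs), 890 up to 45 µm away, 828 at 46 to 90 µm, 743 at 91 to 180 µm and 774 beyond. The corresponding levels in the summed control mice were 419, 344, 544, 362 and 452, from 17 UMIs on the Acta2-rich hexagons.

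**Figure D3:**
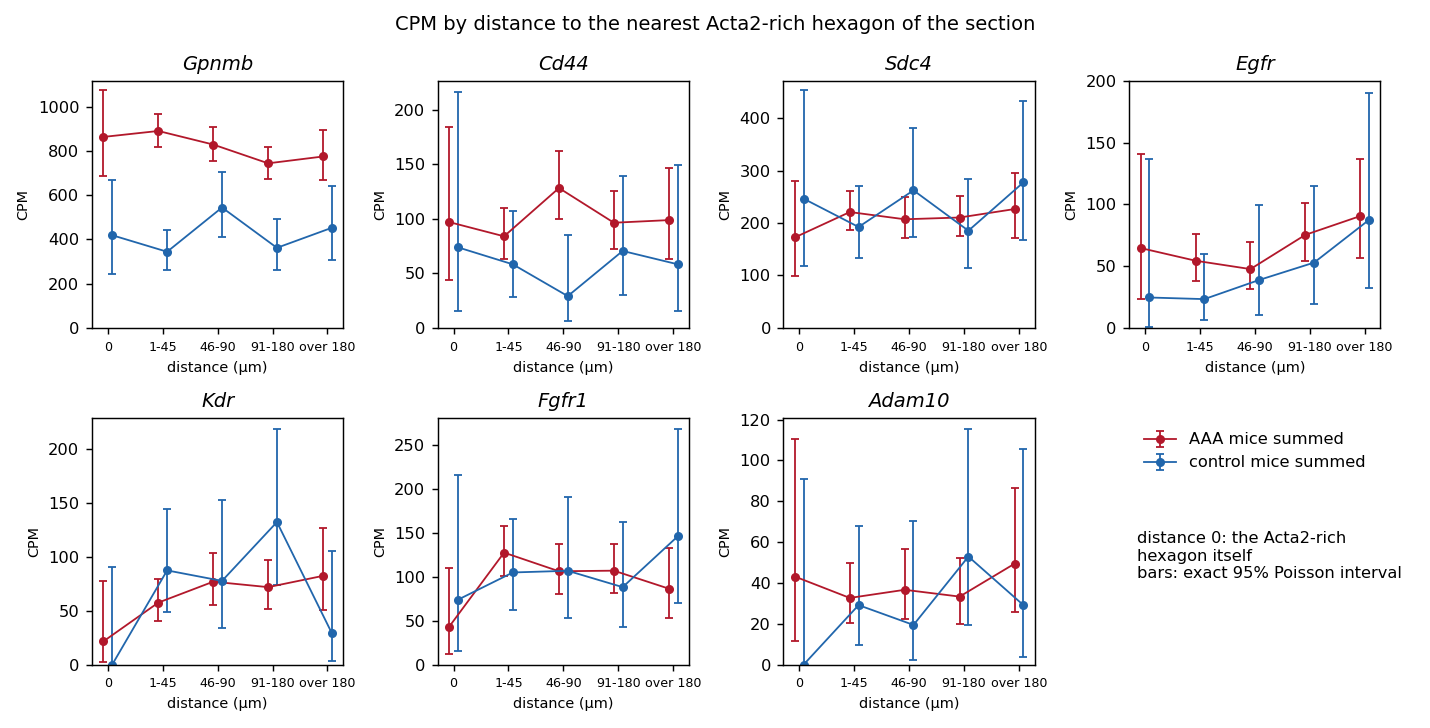
Gpnmb and its partners in CPM by distance in µm from the nearest Acta2-rich hexagon, for the AAA mice summed and the control mice summed, with exact 95% Poisson intervals. In the AAA mice summed, Gpnmb stays between 743 and 890 CPM over all distances, and the intervals of the sparse receptor genes are wide. Single mice, not drawn, differ. From Acta2-rich hexagons to beyond 180 µm, A1 goes from 411 to 811 CPM and A3 from 1400 to 745.

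Of all Gpnmb UMIs, 3.58%, 3.50% and 6.54% fell on Acta2-rich hexagons in A1, A2 and A3, against 11.8%, 2.99% and 10.1% in C1, C2 and C3. The AAA values overlapped the control values (difference −3.76 percentage points, exact two-sided permutation p = 0.4, adjusted p = 0.56 over 7 genes). For Cd44 the shares were 1.14%, 9.52% and 4.88% in the AAA mice and 10.0%, 11.1% and 11.1% in the control mice. Each Cd44 share in the control mice stood for 1 UMI (exact two-sided permutation p = 0.1, adjusted p = 0.35). The share of all UMIs was also lower in AAA mice, with means of 4.2% against 8.08%, beside 5.18% against 10.7% for Cd44. Whether Cd44 fell by more than all genes was not tested. Adam10 had a mean of 5.53% in AAA mice, from 4 UMIs, beside the 4.2% of all genes. In control mice Adam10 had 0 UMIs on Acta2-rich hexagons (exact two-sided permutation p = 0.1, adjusted p = 0.35). The control mice held only 4, 8 and 3 Adam10 UMIs in all, too few to tell 0 from the 8.08% of all genes. The lack of overlap for Adam10 therefore shows no direction. Of all Gpnmb UMIs in the AAA mice summed, 62.0% lay more than 45 µm from any Acta2-rich hexagon, as did 64.9% of the UMIs of all genes. In the AAA mice 64.6%, 69.6% and 59.9% of the hexagons with Gpnmb lay that far away, and 3.40%, 3.27% and 5.45% were Acta2-rich themselves. Of all AAA hexagons, 83.3% lay that far away and 1.36% were Acta2-rich. Of AAA hexagons without Gpnmb but with 20 or more UMIs, which are closer in depth (median 38 UMIs, against 41 in hexagons with Gpnmb), 66.5% lay that far away, against 64.3% of those with Gpnmb.

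Hexagons with several Gpnmb UMIs lay nearer to Acta2-rich hexagons than those with 1. Of 169 AAA hexagons with 2 or more Gpnmb UMIs, 50.9% were on or within 45 µm of an Acta2-rich hexagon, against 33.8% of 1328 hexagons with 1 Gpnmb UMI. In A1, A2 and A3 the shares were 54.5%, 44.1% and 56.1% for 2 or more, against 33.6%, 27.8% and 38.3% for 1, the same order in all 3 mice. AAA hexagons with no Gpnmb but 20 or more UMIs had 33.5% there. Depth moved with this, since the median was 62 UMIs in hexagons with 2 or more Gpnmb UMIs and 39 in those with 1, and its part was not tested.

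**Figure D4:**
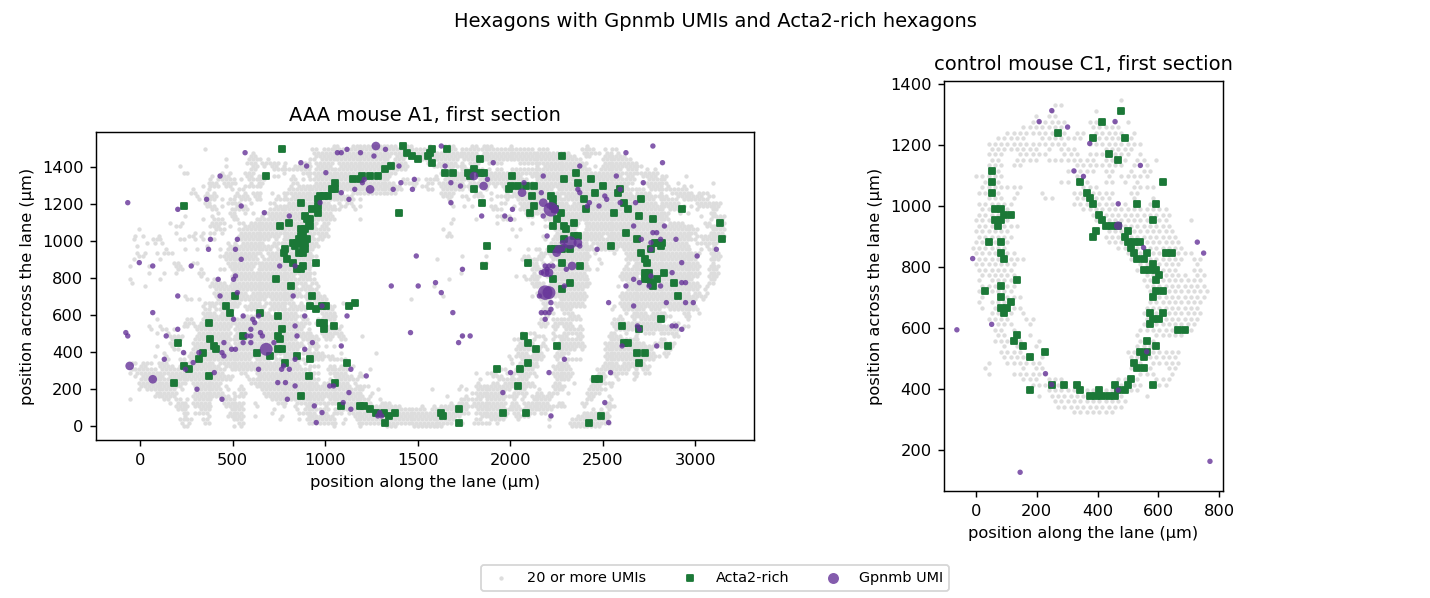
Positions in µm along and across the lane of hexagons with Gpnmb UMIs (purple, larger for more UMIs), Acta2-rich hexagons (green squares) and hexagons with 20 or more UMIs (grey), in the first section of AAA mouse A1 and the first section of control mouse C1. The AAA section has 230 hexagons with Gpnmb and 227 Acta2-rich hexagons, and the control section has 22 and 102.

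The receptors and Adam10 were too sparse on Acta2-rich hexagons for most patterns to be read. Summed over the AAA mice, Acta2-rich hexagons held 9 Cd44, 16 Sdc4, 6 Egfr, 2 Kdr, 4 Fgfr1 and 4 Adam10 UMIs. Their levels on Acta2-rich hexagons, against those more than 45 µm away, gave log2 ratios of −0.18 for Cd44, −0.30 for Sdc4, −0.05 for Egfr, −1.81 for Kdr, −1.26 for Fgfr1 and 0.20 for Adam10, with 0.14 for Gpnmb. Kdr and Fgfr1 were lower on Acta2-rich hexagons in 3 of 3 AAA mice, on 2 and 4 UMIs in all. The other genes differed in direction between mice. Egfr, for example, had 61.7, 70.9 and 66.6 CPM on Acta2-rich hexagons in A1, A2 and A3, from 3, 1 and 2 UMIs, against 59.4, 69.5 and 75.1 farther away. Kdr had 0 UMIs among 40610 on the Acta2-rich hexagons of control mice, which allows up to 90.8 CPM by the exact 95% Poisson interval.

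The receptor levels were also compared by distance to Gpnmb itself. Cd44 had 102, 99.0 and 90.4 CPM within 45 µm of a hexagon with Gpnmb in A1, A2 and A3, against 84.4, 88.5 and 139 farther away, so the mice disagreed in direction. Sdc4 had 218, 170 and 237 within that distance against 179, 280 and 220 farther away, again without a shared direction. Adam10 had 33.9, 33.0 and 56.0 near Gpnmb and 21.1, 44.3 and 45.5 farther away.

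For Egfr, Kdr and Fgfr1, the 3 AAA mice shared a direction. Egfr was lower near Gpnmb, at 53.7, 55.0 and 38.8 CPM against 61.7, 81.1 and 77.3 farther away. Kdr was lower near Gpnmb too, at 76.4, 16.5 and 30.1 against 81.2, 125 and 47.7. Fgfr1 was higher near Gpnmb, at 110, 110 and 138 against 109, 103 and 90.9. No test was made of these directions, each of which is a count of 3 mice. With introns counted only Kdr kept one direction in all 3 mice. In hexagons with 75 or more genes Kdr differed between mice too. There Adam10 was higher near Gpnmb in 3 of 3 mice (log2 ratio 1.25, with 0.5 added to each count), from 12 UMIs near and 6 farther away. Sdc4 was lower near Gpnmb in 3 of 3 mice when 25 µm was taken as near (−0.29). Fgfr1 was lower near Gpnmb in 3 of 3 mice when 90 µm was taken as near (log2 ratio −0.14, with 0.5 added to each count) and differed between mice at 25 µm (−0.03).

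**Figure D5:**
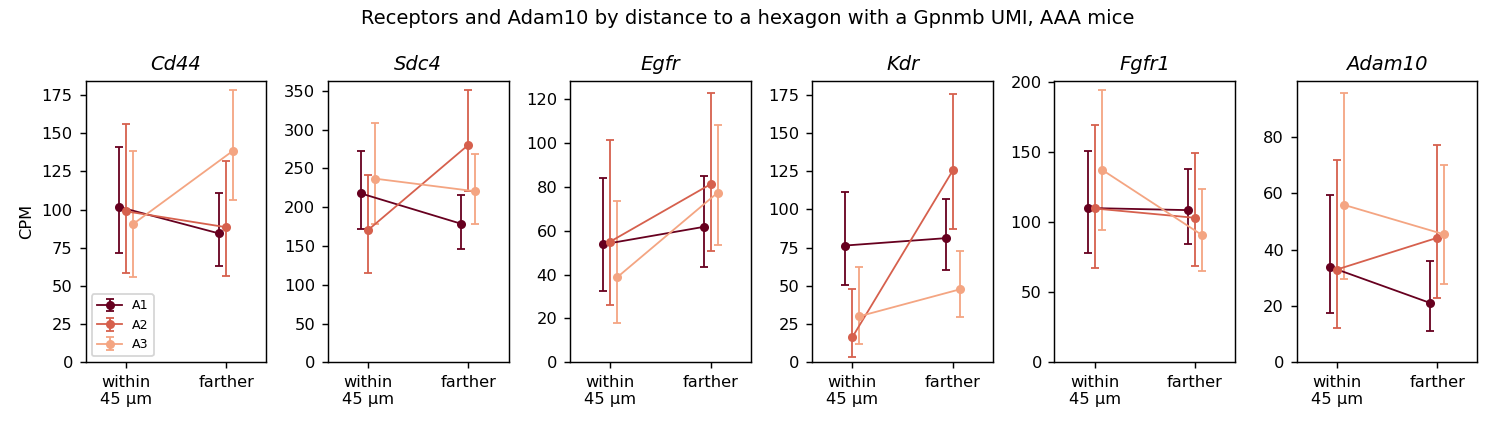
CPM of each receptor gene and Adam10 within 45 µm of a hexagon with a Gpnmb UMI and farther away, in each of the 3 AAA mice; bars are exact 95% Poisson intervals and lines join the 2 values of a mouse. Egfr and Kdr are lower near Gpnmb in 3 of 3 mice, Fgfr1 is higher in 3 of 3 at this distance but lower in 3 of 3 at 90 µm, and Cd44, Sdc4 and Adam10 differ in direction between mice.

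Few hexagons held both Gpnmb and a receptor, in numbers set against the sparsity of each gene. Of 1497 AAA hexagons with Gpnmb, 6 also held Cd44 (0.401%), 13 Sdc4 (0.868%), 3 Egfr (0.200%), 3 Kdr (0.200%), 6 Fgfr1 (0.401%) and 5 Adam10 (0.334%). Of 86769 AAA hexagons without Gpnmb, 0.225% held Cd44, 0.486% Sdc4, 0.144% Egfr, 0.152% Kdr, 0.243% Fgfr1 and 0.0772% Adam10, at a median of 13 UMIs against 41 in hexagons with Gpnmb. Among those without Gpnmb that had 20 or more UMIs (median 38), the shares were 0.486% for Cd44, 1.03% for Sdc4, 0.306% for Egfr, 0.325% for Kdr, 0.518% for Fgfr1 and 0.155% for Adam10. For all 6 genes the share in hexagons with Gpnmb was thus the larger beside all hexagons without it, and for all but Adam10 the smaller beside those of like depth. These differences rest on 3 to 13 hexagons per gene and were not tested. Of 201 hexagons with Gpnmb in control mice, 1 held Sdc4, 1 held Fgfr1 and 0 held any of the others. A hexagon can hold parts of several cells, and at these depths a missing UMI does not show that a cell lacked the transcript.

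The genes that lay most like Gpnmb were found by the log2 ratio of CPM in hexagons with Gpnmb over hexagons without it, with 0.5 added to each count, ranking 715 genes with at least 100 UMIs in each AAA mouse by their lowest ratio over the 3 mice. The first was Fabp5, a fatty acid binding protein, with ratios of 2.22, 1.86 and 1.58 in A1, A2 and A3. Then came Cd5l, a secreted macrophage protein (lowest ratio 1.04), Psap, the precursor of the saposins of the lysosome (0.87), and the cathepsins Ctsd (0.79), Ctss (0.79), Ctsz (0.63) and Ctsl (0.63). Cyba, a subunit of the NADPH oxidase (0.56), C1qc of complement (0.52) and Gng5, a G protein subunit (0.48), completed the 10. Acta2 ranked 328, with −0.32, −0.05 and 0.27. Sdc4, the only partner gene with enough UMIs to rank, had −1.49, 0.54 and −0.42 from 2, 7 and 4 UMIs in hexagons with Gpnmb. Its rank of 685 rests on the 2 UMIs of A1.

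The hexagons with 2 or more Gpnmb UMIs held few UMIs of most of these genes. Ctsd had 5471, 6317 and 7363 CPM there in A1, A2 and A3, against 1444, 1678 and 2048 in hexagons without Gpnmb. The ranking above had already picked Ctsd and Fabp5 as high in hexagons with Gpnmb, and these hexagons are among them. Higher levels of the 2 genes here are therefore no separate support. Fabp5 had 1824, 1685 and 273 CPM there, from 8, 8 and 1 UMIs, against 141, 216 and 184. In A3 its level was below the 577 CPM of hexagons with 1 Gpnmb UMI. Lyz2, a macrophage lysozyme, had 1368, 8002 and 1364 against 852, 975 and 865, most of the difference being in A2. It is a macrophage marker and not among the 10 genes above. Cd68 had 0, 0 and 3 UMIs in these hexagons, among 4387, 4749 and 3667 UMIs of all genes. The 0 counts of A1 and A2 allow up to 841 and 777 CPM by the exact 95% Poisson interval. They do not separate Cd68 from the 148 and 165 CPM in hexagons without Gpnmb. In A3 it had 818 CPM against 166. Acta2 had 4103, 3159 and 7908 against 4506, 4322 and 5359, with no shared direction. Cd44 had 0 UMIs among the 12803 in these hexagons, which allows up to 288 CPM by the exact 95% Poisson interval and therefore does not separate it from the 102 CPM in hexagons without Gpnmb.

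In the genome (GRCm38), Gpnmb (ENSMUSG00000029816) spans 49036546 to 49070929 on the plus strand of chromosome 6 and overlaps no other annotated gene. Cd44 spans 102811141 to 102901665 and Sdc4 164424247 to 164443887, both on the minus strand of chromosome 2. Egfr spans 16752203 to 16918158 on the plus strand of chromosome 11, where its antisense neighbour Egfros shares no exon with it, and Kdr 75932827 to 75978458 on the minus strand of chromosome 5. Fgfr1 spans 25513654 to 25575718 on the plus strand of chromosome 8 and Adam10 70678997 to 70780229 on the plus strand of chromosome 9.

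The Gpnmb promoter is shown because the genes lying with Gpnmb included several of the lysosome, whose promoters can carry the letters CACGTG read by MiT/TFE factors. The 300 bases below run 250 bases before to 50 after the start of the RefSeq transcript (GRCm38.p6, chr6:49036268-49036567, plus strand), with the AP-1 type motif TGACTCA in capitals.
Gpnmb promoter: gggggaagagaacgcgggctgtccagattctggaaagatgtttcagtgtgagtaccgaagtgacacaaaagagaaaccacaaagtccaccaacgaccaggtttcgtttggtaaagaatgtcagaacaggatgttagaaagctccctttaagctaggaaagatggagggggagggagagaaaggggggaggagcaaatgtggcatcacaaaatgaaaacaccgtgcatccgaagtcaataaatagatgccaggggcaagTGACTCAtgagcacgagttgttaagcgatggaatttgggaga
The letters CACGTG, searched on both strands, do not occur in this window, and 7.15% of 32851 promoters of that length hold them. The letters TGACTCA, on either strand, occur once, starting 8 bases after the transcript start, and are in 5.20% of those promoters. CACGTG occurs in the windows of Adam10 (1 match), Ctsd (2) and Ctsl (1). Of the 7 genes, 6 were matched to a promoter, all but Fgfr1. A match of letters is a description and not evidence of binding.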

How the data were processed

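Seq-Scope UMI counts, deposited as 1 matrix for both aorta libraries, were made by the authors with STARsolo 2.7.5c on mm10. The matrix holds whole-number counts of exonic UMIs and of UMIs over the whole gene, introns included, for 9837644 barcodes and 32285 genes. Exonic counts were used. The 8551 genes whose symbols start with mt or Gm were left out, as in the study's methods, as were 763 barcodes without a position. Levels are CPM, UMIs per 1000000 remaining UMIs. Barcodes inside the borders of 20 sections were summed per mouse, all of them for totals, and in hexagons of 12 µm sides for positions.

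The 3 AAA and 3 control mice were compared with edgeR 4.0.16 (R 4.3.3, TMM, filterByExpr, quasi-likelihood test, no block), adjusted over 6377 genes. Single values were compared with exact two-sided permutation tests over mice. Poisson intervals were computed with scipy 1.17.1. On simulated counts for this comparison, over the same 6377 genes, 47% of 100 genes changed by 1 and 85% of 100 changed by 2 on the log2 scale were recovered, with 8 false calls. Named genes were the 7 members, in each list the 3 genes with most UMIs and all that passed, and the 10 genes most like Gpnmb in position. The tally of a list with items not reported here is left out. Log2 ratios by Gpnmb hexagons carry 0.5 added to each count. Members and lists were chosen with earlier results of these data known. The hexagons with 2 or more Gpnmb UMIs, and the companions shown in them, were chosen after values were seen. Gene coordinates come from GENCODE M21 and promoters from RefSeq. Mice are the replicates, and all sections lay on 1 lane of 1 array. Alternatives were DESeq2 1.42.0, a replicate block, no low-count filter, whole-gene counts, hexagon filters, other distances and Acta2 minimums, and leaving out each mouse.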

Additional observations from a re-analysis of the deposited data

Results flagged for a closer look

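Fgfr1 in the second section of A2 had 83.0 CPM, below the other 9 AAA sections, which lay close together. Among 14 groups of sections looked at this was 1 flag, and chance gives about 1 in 20.

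Between the sections, outside every comparison, the array held 281 Gpnmb UMIs, 27 Cd44, 79 Sdc4, 15 Egfr, 15 Kdr, 33 Fgfr1 and 7 Adam10 UMIs. Each is above the 3 counts that a count of 0 allows.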

How the results depend on the processing

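Gpnmb was higher in AAA in all 16 alternatives (log2 fold change 0.90 to 1.36) and called in 15, the exception being hexagons with 75 or more genes (1.06). There the members called went to 0 and the genes called by edgeR to 70, against 148. Leaving out 1 mouse gave 63 to 170 calls (86 without C1, 63 without C3) and 7 to 12 calls in the lists, against 11 (7 without C1 and 7 without C3). The replicate block gave 195 calls and 1.06 for Gpnmb. The aortas were embedded in pairs, but the main fit did not treat pair numbers as pairing. Same-numbered mice deviated together at correlations of 0.04, 0.02 and 0.05. Over genes of mostly low count, such values cannot show that a pair effect was absent. DESeq2 gave 126 calls, whole-gene counts 122 and no low-count filter 188, the last with the median of all genes at 0.16.

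Cd44, Sdc4, Egfr, Kdr, Fgfr1 and Adam10 were called in no alternative that tested them. Signs turned with whole-gene counts for Sdc4 (0.030), Egfr (−0.031), Kdr (0.028) and Fgfr1 (−0.15), without the filter for Sdc4 (0.095), and in hexagons with 20 or more UMIs, a setting chosen after seeing the data, for Fgfr1 (−0.14). Leaving out 1 mouse moved Sdc4 over −0.094 to 0.085, Kdr over −0.47 to 0.21 and Adam10 over −0.080 to 0.91. With 0.5 added to each count, the Egfr log2 ratio by Acta2-rich hexagons was 0.06, against −0.05 without it, and it turned to −0.42 (1 Acta2 UMI), −0.18 (3), −0.20 (90 µm), −1.16 (75 or more genes) and −0.58 (whole-gene). Genes with one direction in every AAA mouse by Acta2-rich hexagons numbered 2 with that addition (Egfr and Fgfr1) and 2 without it (Kdr and Fgfr1), against 1 with 3 Acta2 UMIs and 3 to 4 without 1 mouse. By Gpnmb hexagons they numbered 3, against 1 with whole-gene counts and 3 to 5 without 1 mouse. There Fgfr1 turned to −0.034 at 25 µm, −0.14 at 90 µm and −0.031 with whole-gene counts. The cause of these changes was not tested. Adam10 did not pass the low-count filter in several alternatives and has no value there. Depth limits the control mice most.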
